A study of Drosophila melanogaster with 8 samples.

Results

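CG31928, CG31661 and CG6508 are 3 fly genes for pepsin-like aspartic proteases whose RNA was low in egt null ovaries. They are 3 of 18959 genes, unmatched transcripts and transposons in the total RNA table, and were found in it by the RefSeq identifiers of their transcripts. They were chosen by their measured levels in this same contrast, from an earlier reading of these libraries. In each of the 3 both egt null libraries were below both wild-type libraries, as in 11.6% of the 8755 genes (unmatched transcripts and transposons included) that passed a filter on low values, and by at least 2-fold, as in 0.651% of them. All 3 passed that filter. Since the levels chose the genes, their difference is described below without a test, and nothing is read from these counts. The series profiled dissected ovaries of Drosophila melanogaster by total RNA and small RNA sequencing. The egt null group held 1 library of the egt17 allele and 1 of the egt8 allele, and the wild-type group held 2 libraries of Oregon-R, a common laboratory strain. All flies were kept at 25 °C, and each assay had 4 libraries. The labels give no age, no number of animals and no statement that libraries came from separate animals, so the limma p-values given here measure only the spread between libraries, which may be technical. Within the null group that spread includes the difference between alleles.

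Pepsin-like aspartic proteases cut proteins with a pair of aspartate residues in the active site. Most work best in acid and are made as inactive precursors that enter the secretory pathway, and cathepsin D, the lysosomal enzyme, is the family member best known in animal cells. The specific role of these 3 fly enzymes is not known from the sources used here. The chorion genes, against which they are set, encode the outer eggshell that follicle cells secrete at the end of oogenesis. The vitelline membrane genes encode the inner eggshell layer and are active earlier in the same cells.

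The 4 total RNA libraries held 6.15 M reads for egt17, 15.9 M for egt8, 6.32 M for wild type 1 and 16.6 M for wild type 2. They resembled each other by depth: log2 values correlated at 0.966 between egt17 and wild type 1 and at 0.948 between egt8 and wild type 2, against 0.876 between the null libraries and 0.901 between the wild-type libraries, across 8755 genes, which are not independent replicates. The labels name no batch and do not pair the libraries. Differences within the pair of egt17 and wild type 1 (the egt17 pair) and the pair of egt8 and wild type 2 (the egt8 pair) are given beside the pooled ones. Boot, which the series names and which is taken here to be egt, measured 40.6 FPKM in egt17 and 52.1 FPKM in egt8, against 88.6 FPKM in wild type 1 and 89.7 FPKM in wild type 2 (log2 difference -0.94 ± 0.32, SE, with a limma adjusted p of 0.9999). Its limma adjusted p was 0.164 with the library pair as a term and 0.00989 with that term on reads recovered from the FPKM (limma's voom). Fits with that term leave 1 residual degree of freedom. The pairs were chosen by the likeness of these same libraries, so p-values with the pair term, here and below, may be too small. FPKM are fragments per kilobase of transcript for each 1 M reads, a level per length. The germline markers vas, osk, bam, aub and piwi and the follicle cell marker tj were above 0 in every library. Of 8 midgut markers, 2 were at 0 in all libraries, the highest value of any was 0.296 FPKM, and their summed level was 0.102 to 0.367 FPKM in egt null and 0.390 to 0.537 FPKM in wild type. The spermathecal marker Send1 was at 0 in every library, and Send2 was at 0 except for 0.0811 FPKM in egt8.

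CG31928 was the most abundant of the 3 genes. It measured 17.6 FPKM in egt17 and 31.2 FPKM in egt8, against 158 FPKM in wild type 1 and 99.8 FPKM in wild type 2. The means were 24.4 ± 9.63 FPKM in egt null and 129 ± 41.3 FPKM in wild type (SD, n = 2 each). The groups did not overlap, and the lower wild-type library was 3.20 times the higher null library. The pooled difference in log2(FPKM + 1) was -2.37 ± 0.45 (SE of the fit), with -3.10 in the egt17 pair and -1.65 in the egt8 pair. In wild type its level exceeded that of 93.2% and 90.7% of the genes that passed the filter, while in egt17 and egt8 it exceeded 40.8% and 63.2% of them. In RNA from whole ovaries, fewer cells of a type and less RNA per cell cannot be told apart, and this holds for every difference given here.

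CG31661 measured 16.1 FPKM in egt17 and 8.19 FPKM in egt8, against 68.2 FPKM in wild type 1 and 49.9 FPKM in wild type 2. The means were 12.2 ± 5.61 FPKM in egt null and 59.1 ± 12.9 FPKM in wild type (SD, n = 2 each), with no overlap. Its pooled log2 difference was -2.24 ± 0.47 (SE). It differed from the other two in the order of the alleles: egt8 was the lower library, and the difference was -2.01 in the egt17 pair and -2.47 in the egt8 pair.

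CG6508 was the least abundant. It measured 1.53 FPKM in egt17 and 7.10 FPKM in egt8, against 43.1 FPKM in wild type 1 and 21.6 FPKM in wild type 2. The means were 4.32 ± 3.94 FPKM in egt null and 32.4 ± 15.2 FPKM in wild type (SD, n = 2 each), again with no overlap. The pooled log2 difference was -2.80 ± 0.74 (SE), and its pairs lay farthest apart of the 3 genes, at -4.12 in the egt17 pair and -1.48 in the egt8 pair. The pooled value was -1.96 without egt17 and -3.64 without egt8. In order of the pooled difference the 3 genes ranked 2 (CG6508), 6 (CG31928) and 12 (CG31661) from the lowest of the 8755 genes tested.

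**Figure D1:**
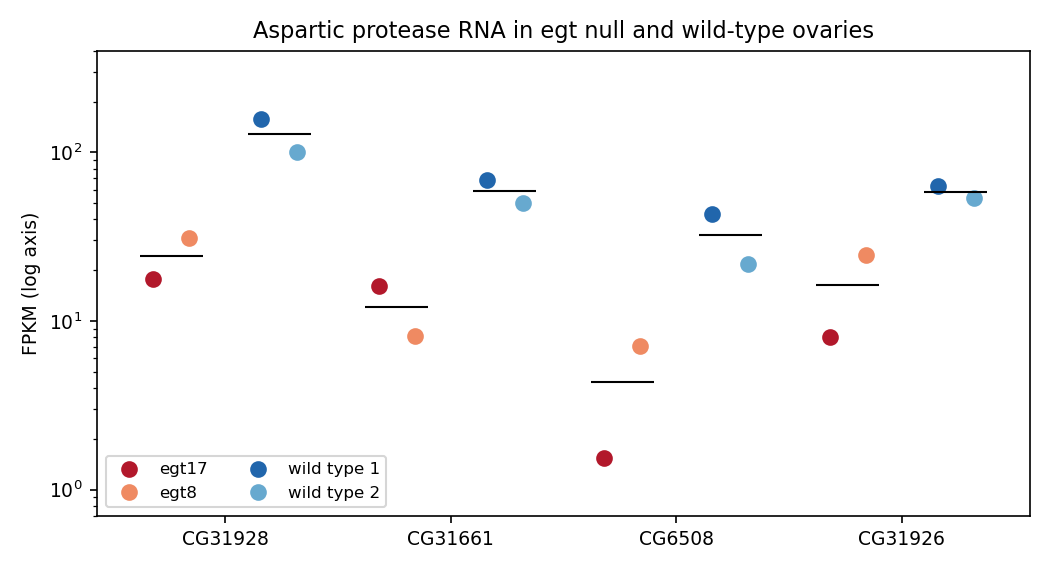
FPKM on a log axis for the 3 aspartic protease genes and their relative CG31926, 1 point for each library, with a bar at the mean of the 2 null and the 2 wild-type libraries. For each gene both null points lie below both wild-type points, and CG31661 differs from the other genes in that egt8, at 8.19 FPKM, is below egt17, at 16.1 FPKM.

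The reads behind these values could be recovered, because the deposited FPKM were whole multiples of what 1 read is worth at each transcript's length. CG6508 rested on 13 reads in egt17 (95% exact Poisson interval 6.92 to 22.2, counting error only), 156 in egt8, 376 in wild type 1 and 496 in wild type 2. CG31661 rested on 133 reads in egt17, 175 in egt8, 578 in wild type 1 and 1112 in wild type 2. CG31928 had 159 reads in egt17, 723 in egt8, 1455 in wild type 1 and 2421 in wild type 2. The level of CG6508 in egt17 was thus the least precise of these values.

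The reads also gave the transcript models. The CG31661 transcript, at 1341 bases, and the CG6508 transcript, at 1379 bases, were each as long as their gene on the chromosome, so these models hold no intron. CG31928 had a transcript of 1565 bases, again the length of the gene, and a shorter one of 1351 bases. The longer one held 93 reads in egt17 and 373 in egt8, against 764 in wild type 1 and 1318 in wild type 2. The shorter one held 66 reads in egt17 and 350 in egt8, against 691 in wild type 1 and 1103 in wild type 2. Both models were low in both null libraries, and reads in the bases they share cannot be assigned to either.

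All 3 genes lie on chromosome arm 2L, and 2 of them in an array of relatives. In the RefSeq Release 6 annotation, CG31928 spans 1492295 to 1493859 and CG31661 spans 1497243 to 1498583. Between them lie CG33128 (1494070 to 1495456) and CG31926 (1495460 to 1497071), which belong to the same protease family. The whole array of 4 genes covers 6289 bases, with gaps of 210, 3 and 171 bases between neighbours. The reference table gives the same earlier name, CG10872, to the 4 genes. CG6508 lies 9.32 Mb away, from 10819107 to 10820485, inside the span of the nitric oxide synthase gene Nos (10804274 to 10837511), with the relative CG17134 after a gap of 219 bases. CG31661 overlaps the neighbouring gene CG18131 by 129 bases, and whether counting used strand is not given in the sources used here, so reads in that overlap cannot be assigned with certainty. Reads that related genes share in identical stretches are uncertain in the same way.

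The relatives beside these genes differed widely in level. CG31926, which lies between CG31928 and CG31661, measured 8.05 FPKM in egt17 and 24.4 FPKM in egt8, against 63.0 FPKM in wild type 1 and 53.9 FPKM in wild type 2. Its groups did not overlap, by a factor of 2.21 between the nearest libraries. The smallest such factor among the 3 genes was 3.05, in CG6508. The log2 difference of CG31926 was -1.97 ± 0.59 (SE, n = 2 against 2), with a limma adjusted p of 0.9999. The limma adjusted p was 0.212 with the library pair as a term and 0.0107 with that term on the recovered reads (limma's voom). CG33128, between CG31928 and CG31926, measured 0.235 FPKM in egt17 and 0.226 FPKM in egt8, against 0.799 FPKM in wild type 1 and 0.260 FPKM in wild type 2. CG17134, beside CG6508, was listed at 0 in both null libraries, against 0.752 FPKM in wild type 1 and 0.238 FPKM in wild type 2. Neither passed the filter on low values.

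The genes just to the right of the array had smaller differences, which were not tested against those of the array. CG18131 measured 1.57 FPKM in egt17 and 0.231 FPKM in egt8, against 3.98 FPKM in wild type 1 and 0.571 FPKM in wild type 2, and its groups overlapped. CG7420, the next gene, had a log2 difference of -0.05 ± 0.46 (SE). On the left CG43402 measured 0.275 FPKM in egt17 and 2.21 FPKM in egt8, against 0.268 FPKM in wild type 1 and 0 in wild type 2. It did not pass the filter on low values. Nos was at most 0.351 FPKM in any library. Around CG6508, 9 other genes were tested, and limma called 0 of them. In egt null 4 of the 9 were lower and 5 higher, beside 5067 lower and 3688 higher of all 8755. The genes of this stretch given next were named after their values were seen. CG17127 measured 1.84 FPKM in egt17 and 1.56 FPKM in egt8, against a listed 0 in both wild-type libraries, so the groups did not overlap. Both null libraries were above both wild types in 818 of all 8755 genes tested. CG17127 passed the filter on low values only through its null libraries, and its levels were near that filter. CG6724 had a log2 difference of 0.71 ± 0.47 (SE) and was higher in both pairs. The ubiquitin-conjugating enzyme gene Ubc2 had one of -0.12 ± 0.30, and porin, which encodes the mitochondrial outer membrane channel, one of 0.20 ± 0.39. In the small RNA table none of the 94 clusters overlapped any of the 3 genes. The nearest lay 1.48 Mb from CG31928 and 9.28 Mb from CG6508.

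**Figure D2:**
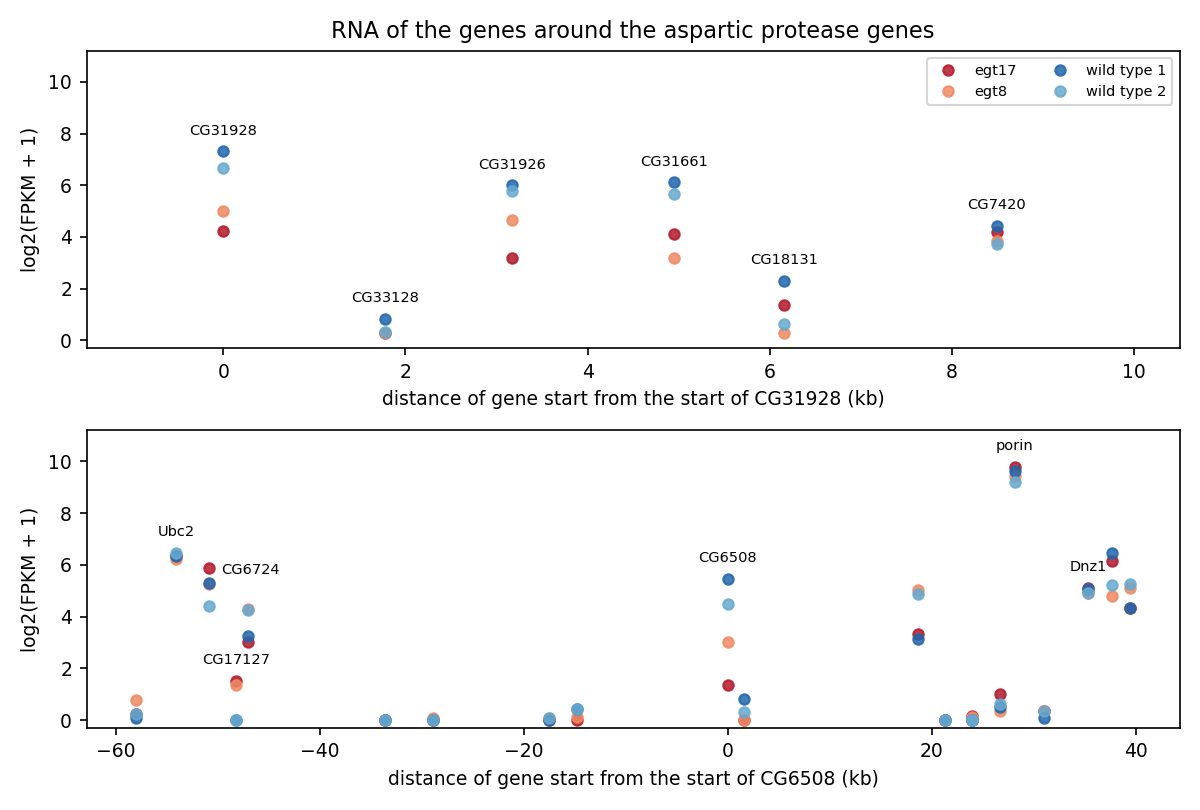
Values of log2(FPKM + 1) in each library for genes around CG31928 (top, protein-coding genes of the array and its right flank) and around CG6508 (bottom), placed by the distance of the gene start in kb. In the top panel the null and wild-type points part at CG31928, CG31926 and CG31661 and lie close together at CG7420, which had a log2 difference of -0.05. In the bottom panel they part at CG6508, where the null points are lower, and at CG17127, where they are higher (1.84 and 1.56 FPKM against 0 in wild type), and lie closer together at Ubc2, porin and Dnz1.

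The rest of the family was mostly at or near 0, apart from cathD and CG31926. Of the 10 other pepsin-like genes listed, 6 were at 0 in every library, among them Bace, the fly relative of the beta-secretases. CG33128 and CG17134 were above 0 but did not pass the filter. cathD, which encodes cathepsin D, measured 341 FPKM in egt17 and 209 FPKM in egt8, against 374 FPKM in wild type 1 and 219 FPKM in wild type 2, and its groups overlapped. Its log2 difference was -0.10 ± 0.45 (SE, n = 2 against 2) with a limma adjusted p of 0.9999. The 2 tested genes of this list, cathD at -0.10 and CG31926 at -1.97, had a median of -1.03, which describes neither. The median over all genes tested was -0.06.

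Among aspartyl peptidases of other families 1 was lower and 3 were higher in egt null, and limma called 0 of the 4. Over all 8755 genes tested 5067 were lower and 3688 higher. Psn (the catalytic subunit of gamma-secretase), Spp (signal peptide peptidase), SppL and rngo (a Ddi1-type protease of the fly germline ring canals) had a median log2 difference of 0.03, from -0.02 to 0.23. With an SE of 0.31 or more in Psn, Spp and rngo, small differences could not be seen. Of 10 other ovarian and lysosomal proteases, 7 were lower and 3 higher, beside those same counts over all genes. Their median was -0.08, and limma called 0 of the 10. CtsL1, a lysosomal cysteine cathepsin, measured 609 FPKM in egt17 and 409 FPKM in egt8, against 669 FPKM in wild type 1 and 455 FPKM in wild type 2.

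Over all 8755 genes limma called 0 at an adjusted p of 0.05, or 0% of those tested, with 166 at an unadjusted p under 0.05. With the library pair as a term limma called 13 genes, of which 4 (0.0457% of those tested) fell, and CG31661 was 1 of the 4. With that term on the recovered reads 245 genes were called, of which 95 (1.09% of 8735) fell, all 3 aspartic protease genes among them. Nothing is read from the calls of the 3 genes, which use the contrast that chose them.

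The chorion genes had lower levels in egt null too, and the 3 genes were set against them library by library. Of 9 chorion genes, all tested, 9 had a negative pooled difference, as had 5067 of all 8755 genes. The chorion median was -1.43 against -0.06 over all genes. Lower in both library pairs were 7 of the 9, where the share over all genes was 37%. Both null libraries were below both wild types in 7 of the 9, against 11.6% of all genes, and by 2-fold or more in 3 of the 9, against 0.651% of all genes. Limma called 0 of the 9, with or without the pair term, and 7 with the term on the recovered reads. Within pairs the median was -1.93 for egt17 and -0.77 for egt8. That the chorion genes were lower was known from earlier results of these data, and so is no independent observation.

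CG31928 and CG6508 were lower in egt17 than in egt8, as were 8 of the 9 chorion genes, while CG31661 shared the opposite order with Cp7Fa. Cp15, a chorion protein gene of the 3L cluster, measured 1148 FPKM in egt17 and 2341 FPKM in egt8, against 10998 FPKM in wild type 1 and 5867 FPKM in wild type 2. For Cp15 egt17 was the lowest and wild type 1 the highest, as for CG31928 and CG6508. In the egt17 pair, where chorion differences ran from -4.07 to -1.23, CG31928 at -3.10 and CG31661 at -2.01 lay inside that range and CG6508 at -4.12 lay just below it. In the egt8 pair, where they ran from -1.63 to 0.32, CG31928 at -1.65 and CG31661 at -2.47 lay below all 9 chorion genes and CG6508 at -1.48 below 8 of them. CG31661 was thus nearest to the chorion median in the egt17 pair and farthest from it in the egt8 pair. The 3 genes were chosen gene by gene for low levels in this contrast, while the chorion genes form a list. Nothing is therefore read from places of the 3 below the chorion genes.

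The summed level of the 9 chorion genes was 4438 FPKM in egt17 and 10718 FPKM in egt8, against 27618 FPKM in wild type 1 and 20194 FPKM in wild type 2. For each 1000 FPKM of chorion RNA, CG31928 had 3.97 FPKM in egt17 and 2.91 FPKM in egt8, against 5.73 FPKM in wild type 1 and 4.94 FPKM in wild type 2. So set against chorion RNA, its null values were 0.693 and 0.589 of the paired wild types, and the groups still did not overlap. For CG31661 this level was 3.63 FPKM in egt17 and 0.764 FPKM in egt8, against 2.47 FPKM in both wild types, and the alleles lay on either side of wild type. For CG6508 it was 0.346 FPKM in egt17 and 0.663 FPKM in egt8, against 1.56 FPKM in wild type 1 and 1.07 FPKM in wild type 2. CG31926, by the same reckoning, had 1.81 FPKM in egt17 and 2.28 FPKM in egt8, against 2.28 FPKM in wild type 1 and 2.67 FPKM in wild type 2. For the 3 genes these levels use the contrast that chose them, so nothing is read from a remaining difference.

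Other late eggshell genes had lower levels in both pairs as well. Of 10 listed late follicle cell and chorion-associated genes 9 were in the table and 8 were tested. All 8 had a negative pooled difference (median -1.57), as had 5067 of all 8755 genes. The 8 were lower in both pairs (medians -2.44 in the egt17 pair and -0.61 in the egt8 pair), against 37% of all genes. Both null libraries were below both wild types in 5 of the 8, against 11.6% of all genes. By 2-fold or more this held in 1 of the 8, against 0.651% of all genes. Femcoat, an eggshell gene, measured 51.7 FPKM in egt17 and 58.3 FPKM in egt8, against 279 FPKM in wild type 1 and 122 FPKM in wild type 2. Of 11 vitelline membrane genes tested, 11 were lower in the egt17 pair (median -1.51) and 1 in the egt8 pair (median 0.41). Of all 8755 genes, 4323 were lower in the egt17 pair and 5480 in the egt8 pair. Each pair sets 1 library against 1, and the difference between the pairs was not tested. The 3 protease genes were lower in both pairs, which follows from how they were chosen. Limma called 0 of the late genes and 0 of the vitelline membrane genes, with or without the pair term. With that term on the recovered reads 5 of the 8 late genes fell, Femcoat among them (limma adjusted p 0.00269), and 0 of the vitelline membrane genes were called.

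**Figure D3:**
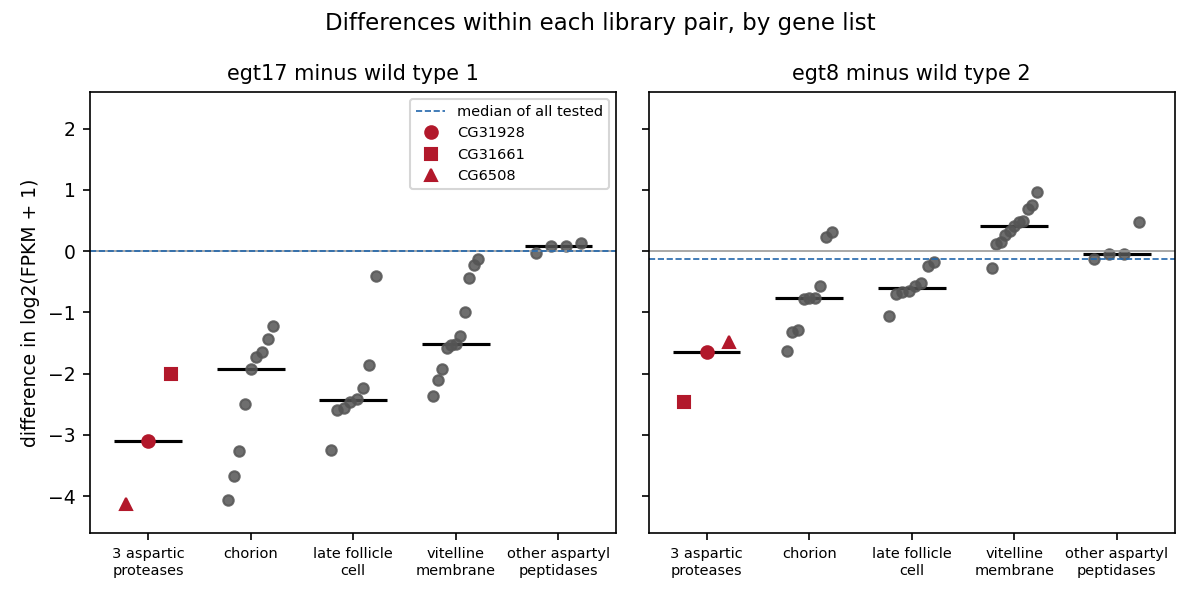
Difference in log2(FPKM + 1) within each library pair for the 3 aspartic protease genes (red) and the tested genes of 4 lists (grey), with a bar at each list's median and a dashed line at the median of all tested genes. In the egt17 pair the proteases, chorion, late follicle cell and vitelline membrane genes lie below 0, and in the egt8 pair the vitelline membrane median is 0.41 while the 3 proteases stay at -1.48 or lower.

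Genes listed beforehand as cell type markers also differed between the libraries. The summed level of 6 muscle genes, 5 of which passed the filter, was 56.7 FPKM in egt17 and 384 FPKM in egt8, against 197 FPKM in wild type 1 and 45.8 FPKM in wild type 2, so the groups overlapped. The sum of 6 genes listed as fat body and hemocyte markers was 78.5 FPKM in egt17 and 219 FPKM in egt8. In wild type 1 it was 75.5 FPKM and in wild type 2 it was 47.2 FPKM. Most of it in every library came from the collagen IV genes vkg and Col4a1, so it is not read as a level of those cells. Lsp2 measured 0.207 FPKM in egt17, 6.88 FPKM in egt8, 0.0639 FPKM in wild type 1 and 0 in wild type 2. Of the 6 genes, vkg was called higher in the fit with the pair term on the recovered reads (limma adjusted p 0.0445), and Fbp1 and Lsp2 were at 0 in at least 1 wild-type library. The summed level of 7 genes listed as follicle cell markers was 150 FPKM in egt17 and 259 FPKM in egt8. In wild type 1 it was 138 FPKM and in wild type 2 it was 233 FPKM. Its largest part was cad, at 79.3 FPKM in egt17, 102 FPKM in egt8, 85.7 FPKM in wild type 1 and 116 FPKM in wild type 2. The sum is therefore not read as a level of follicle cells. The fit with the pair term on the recovered reads called 150 of all 8735 genes higher. In it 2 of the 7 genes listed for follicle cells rose, tj (limma adjusted p 0.0200) and kek1 (0.00732), while the fit without the term called 0. The sum of 5 germline markers was 598 FPKM in egt17 and 1007 FPKM in egt8, against 470 FPKM in wild type 1 and 875 FPKM in wild type 2. The genes upd1, eya and Lac, listed for stalk and polar cells, had sums of 67.1 FPKM in egt17 and 58.3 FPKM in egt8. In wild type 1 the sum was 64.9 FPKM and in wild type 2 it was 56.1 FPKM, mostly Lac. Since upd1 did not pass the filter, neither the sum nor eya is read as a level of those cells. Of these eya measured 8.35 FPKM in egt17 and 14.2 FPKM in egt8, against 6.95 FPKM in wild type 1 and 5.11 FPKM in wild type 2, with a limma adjusted p of 0.0470 in the fit on recovered reads with the pair term and 0.9999 without either. The yolk protein genes had sums of 2861 FPKM in egt17 and 5818 FPKM in egt8, against 4553 FPKM in wild type 1 and 3195 FPKM in wild type 2. Of 3 genes listed for spermatheca and oviduct only Oamb, the octopamine receptor gene, was tested, so it is not read as a level of those tissues. It measured 1.85 FPKM in egt17 and 3.92 FPKM in egt8, against 5.73 FPKM in wild type 1 and 8.59 FPKM in wild type 2. Its limma adjusted p was 0.0386 in the fit on recovered reads with the pair term and 0.9999 without either. The part of any of these cells in the values of the 3 genes was not tested.

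Genes with the most similar profiles were found by the distance between centred log2(FPKM + 1) values over the 4 libraries, among 7052 genes with a mean of at least 5 FPKM. This measure uses the contrast that chose the genes, and is given as a description. The nearest gene to CG31928 was Cp15 (distance 0.25), followed by the chorion gene Cp19 (0.60), CG13083 (0.61), its array neighbour CG31926 (0.71) and Culd (0.78). The nearest to CG6508 were Cp15 (0.69), Cp18 (0.77), CG32642 (0.80), Cp16 (0.87) and CG31926 (0.996). CG31661 had other neighbours: Ilp7 (0.38), which encodes an insulin-like peptide, CG12708 (0.45), CG6685 (0.79), the chorion gene Cp7Fa (0.85) and Culd (0.88). For CG31661, Cp15 was at rank 44 and Cp18 at rank 4266, and CG31926, 171 bases away, was at rank 176.

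Among themselves, CG31928 and CG6508 were at a distance of 0.79, though far apart on the arm, CG31928 and CG31661 at 1.21, and CG31661 and CG6508 at 1.94. In FPKM, CG31928 was 1.09 times CG31661 in egt17 and 3.81 times in egt8, against 2.32 times in wild type 1 and 2.0 times in wild type 2. The ratio of CG31928 to CG6508 was 11.5 in egt17 and 4.40 in egt8, against 3.67 in wild type 1 and 4.61 in wild type 2. The order of the 3 genes, CG31928 above CG31661 above CG6508, was the same in every library, but CG31928 and CG31661 in egt17 (17.6 and 16.1 FPKM) and CG31661 and CG6508 in egt8 (8.19 and 7.10 FPKM) were closer than the spread between null libraries.

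**Figure D4:**
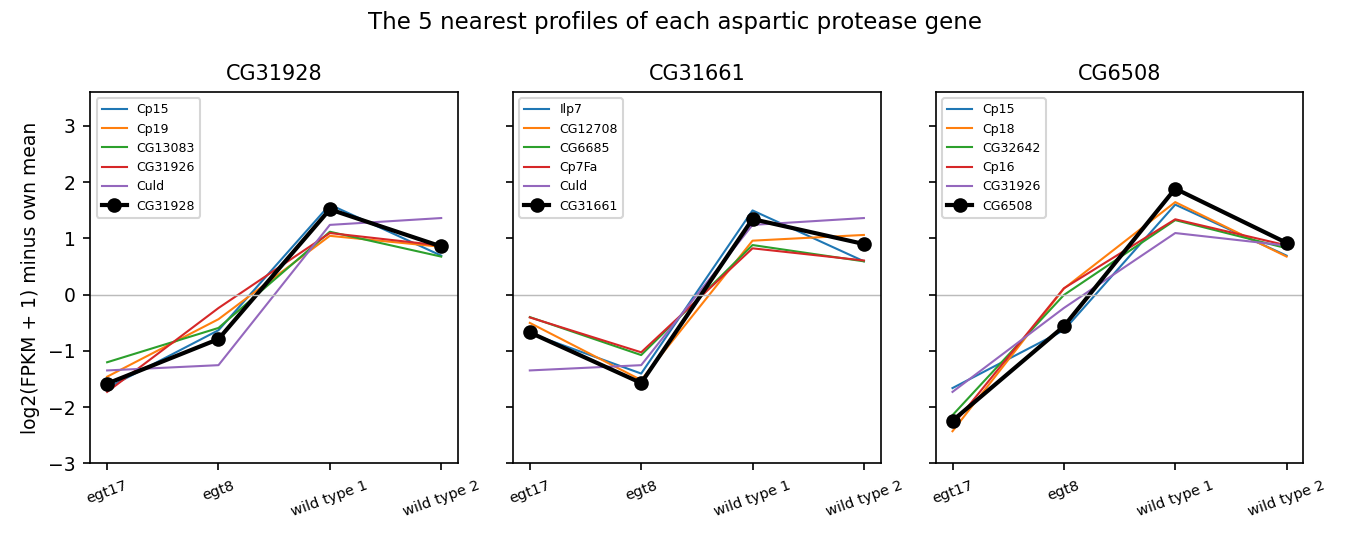
Values of log2(FPKM + 1) minus each gene's own mean in egt17, egt8, wild type 1 and wild type 2, for each of the 3 aspartic protease genes (black) and its 5 nearest genes (coloured). CG31928 and CG6508 are lowest in egt17 and follow Cp15 at distances of 0.25 and 0.69, while CG31661 is lowest in egt8 and follows Ilp7 at 0.38.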

How the data were processed

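Total RNA and small RNA of dissected ovaries were sequenced, with 4 libraries each. The notes name Bowtie2 2.2.4 and the build dm6 (per the submitters' processing notes), without saying what each was for. Which program counted reads, and whether by strand, is not given in the sources used here. The authors deposited FPKM with 1 added (lowest value 1) for 35502 rows, and 1 was subtracted. For small RNA the authors deposited cluster values taken as RPKM, from which only positions were used. Of 35327 transcripts, 32988 matched a gene of the RefSeq Release 6 table and were summed by gene; 2339 unmatched transcripts and 175 transposons were kept as their own rows.

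FPKM were whole multiples of 1 read at some length in all libraries for 99.92% of 23715 rows with values in at least 3 libraries (tolerance 0.01 reads). The recovered reads made up 98.27% to 98.86% of the depth, so the reads summed over all rows came close to the depth itself.

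Genes with at least 1 FPKM in at least 2 libraries (8755) were tested for egt null against wild type by limma (version 3.58.1, R 4.3.3) applied to log2(FPKM + 1), with a mean-variance trend, two-sided, with Benjamini-Hochberg adjustment at 0.05; SE are from this fit, which has 2 residual degrees of freedom. Added after the data were seen was limma's voom on the recovered reads. Differences on the log2(FPKM + 1) scale understate those of low genes. Library pairs rest on depth and likeness, not on labels. Fits with the pair term leave 1 residual degree of freedom, and their p-values may be too small. Members and lists were chosen with earlier results of these data known. Named genes were the members, any list gene, the 2 genes on either side of each, and the 5 nearest profiles. Some genes farther from CG6508 were also named, after their values were seen. Promoter motifs, planned, and protein sequences were not analysed here. Python 3.11.15, numpy 2.4.6, pandas 2.3.3, scipy 1.17.1 and matplotlib 3.10.9 were used.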

Additional observations from a re-analysis of the deposited data

Results flagged for a closer look

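In 13 genes of the protease and eggshell lists egt17 lay on one side of both wild-type libraries and egt8 on the other; none of these differences between the alleles was tested, and each allele has 1 library. The values below are egt17 minus egt8 in log2(FPKM + 1). Among aspartyl peptidases this held for Psn alone, at 0.45, with 35.5 FPKM in egt17 and 25.8 FPKM in egt8, against 33.5 FPKM in wild type 1 and 26.6 FPKM in wild type 2. It held for 2 chorion genes, Cp7Fb at -2.20 and Cp7Fc at -1.92, and for the eggshell protease gene ndl at -2.44. The vitelline membrane genes Vm26Ab (-3.46), Vm26Aa (-2.93), Vm34Ca (-2.91), Vml (-2.40) and psd (-1.78) were low in egt17 and high in egt8. So were the eggshell genes dec (-2.49), fs(1)N (-1.54), fs(1)M3 (-1.36) and tsl (-0.80). CG31928, CG31661 and CG6508 were below both wild types in both alleles and so were not among them.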

How the results depend on the processing

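The labels do not pair the libraries. The number of genes that limma called, 0 with all libraries, was 13 with the library pair as a term (replicate block) and 245 with that term on recovered reads, chosen after seeing the data; the cause was not tested. It was 3 to 9 when a library was left out (wild type 1 left out, 9; wild type 2, 6; egt17, 6; egt8, 3), fits in which a lone library is taken to vary like the other group. It was 0 with a pseudocount of 0.1, no filter, a filter at 5 FPKM, no variance trend, libraries shifted to one median, the highest transcript in place of the sum, and voom without the pair term. The library medians of log2(FPKM + 1) differed by up to 0.242, which the shift to one median removes. The log2 differences of the 3 genes kept their sign in every alternative: with all libraries they ran from -2.42 to -2.23 for CG31928, from -2.44 to -2.16 for CG31661 and from -3.16 to -2.46 for CG6508. With a library left out they ran from -2.77 to -1.97, from -2.69 to -1.79 and from -3.64 to -1.96 in the same order. The chorion median was -0.99 without egt17 and -2.14 without egt8. The median of the other tested aspartic proteases was -1.28 to -0.79 with a library left out and -0.42 with no filter, where 4 genes enter in place of 2. In the shallower pair 13 reads set the precision of CG6508.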
